A study of Homo sapiens with 8 samples.

Results

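The 35 genes described here encode subunits of the integrins, cell surface receptors for the extracellular matrix, and of the laminins, matrix proteins that many of these receptors bind. They were taken by gene symbol, 25 integrin and 10 laminin subunits, and 30 of them are among the 16951 genes measured on the arrays. They were chosen by function and their expression was not part of the rule, but earlier results of these data were known. A gene was measured through a probe that was well above background, a call of the scanner software, on both arrays of at least 1 group, and the brightest such probe was taken. This left 30 genes, 20 integrin subunits and all 10 laminin subunits listed. ITGA2, ITGA8, ITGAL, ITGAX and ITGB6 were not well above background on any of the 8 arrays and have no comparison.

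The study cultured OVSAHO and KURAMOCHI cells, established cell lines of ovarian serous carcinoma, with simvastatin or with L-778123. Simvastatin is a statin, an inhibitor of HMG-CoA reductase in the mevalonate pathway, and L-778123 inhibits both farnesyltransferase and geranylgeranyl transferase, which attach lipids made by that pathway to proteins. The 4 groups, OVSAHO with simvastatin, OVSAHO with L-778123, KURAMOCHI with simvastatin and KURAMOCHI with L-778123, had 2 arrays each. All 8 samples came from cells given a drug, no untreated sample was analysed here, and doses and durations for the arrayed samples are not given in the sources used here. The comparison is thus of simvastatin with L-778123, and which of them moved a gene cannot be read from it. Nothing states that the 2 arrays of a group came from separate cultures, so that p-values measure only the spread between these samples, which may be technical. In cultured cells, fewer expressing cells and less RNA per cell cannot be told apart.

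An integrin is a pair of an alpha and a beta subunit, and the pair decides which ligand is bound. Integrins alpha3 beta1, alpha6 beta1, alpha7 beta1 and alpha6 beta4 bind laminins, alpha1, alpha2, alpha10 and alpha11 with beta1 bind collagens, and alpha5, alphaV, alpha8 and alphaIIb bind proteins with an Arg-Gly-Asp (RGD) sequence such as fibronectin. A laminin is a trimer of an alpha, a beta and a gamma chain and is a main component of basement membranes. Integrin alpha6 beta4 anchors epithelial cells to the laminin that contains the alpha3 and beta3 chains, at junctions called hemidesmosomes.

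Values are log2 intensities relative to the 75th percentile of the array, so that 0 is the level of that percentile. That percentile was 324 to 367 intensity units on the simvastatin arrays and 399 to 437 on the L-778123 arrays, and the part of this difference in the results was not tested. Between 51.8% and 57.5% of the probes were well above background, and replicate arrays correlated at 0.995 to 0.996 over 33753 probes. All 12 serous carcinoma markers examined, among them PAX8, WT1 and MUC16, were well above background in every group. Of 9 fibroblast markers, 1 was above background in OVSAHO and 3 in KURAMOCHI, with DCN, LUM, PDGFRA, PDGFRB, FAP and COL1A2 in neither line. Of the 8 leukocyte markers on the array, 5 were above background in OVSAHO and 6 in KURAMOCHI, but CD3E and ITGAL in no group. Of 7 endothelial markers, 3 to 5 were above background in a group, and PECAM1 and CLDN5 in none. Of the 4 platelet markers on the array, 2 were above background, ITGA2B among them, and PF4 and PPBP were not.

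In OVSAHO, the subunits of the hemidesmosome receptor, ITGA6 and ITGB4, and the laminin beta3 chain LAMB3 rose with simvastatin against L-778123, whereas the collagen receptor ITGA1, the alphaV partner ITGB8 and the laminin chains LAMA1 and LAMA3 fell. To be called, a gene had to differ at least 2-fold with an adjusted p below 0.05. By this rule, 4 of 30 subunits (13.3%) were higher, against 5.69% of all genes, and 5 of 30 (16.7%) were lower, against 5.88% of all genes. These counts include ITGA4 among the higher and ITGB3 among the lower genes, neither of which was well above background on any OVSAHO array. Without both, 3 subunits were higher and 4 were lower, a count chosen after the data were seen. In KURAMOCHI, 2 of 30 subunits (6.67%) were called higher, ITGA4 and LAMA2, against 2.44% of all genes, and 2 were called lower, ITGA1 and ITGB3, against 2.94%. Of these, ITGA4 and ITGB3 were above background in the KURAMOCHI group with the higher signal alone, and LAMA2 on 1 KURAMOCHI array. The higher count thus rests wholly, and the lower count in part, on genes set against a group with no array above background. With only probes above background on all arrays, 0 subunits were called higher in KURAMOCHI and ITGA1 alone was called lower. The median log2 fold change of the 30 subunits was 0.040 in OVSAHO, beside 0.014 for all genes, and -0.20 in KURAMOCHI, beside 0.012 for all genes. ITGA1 was the only subunit well above background on all arrays that was called in both lines.

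**Figure D1:**
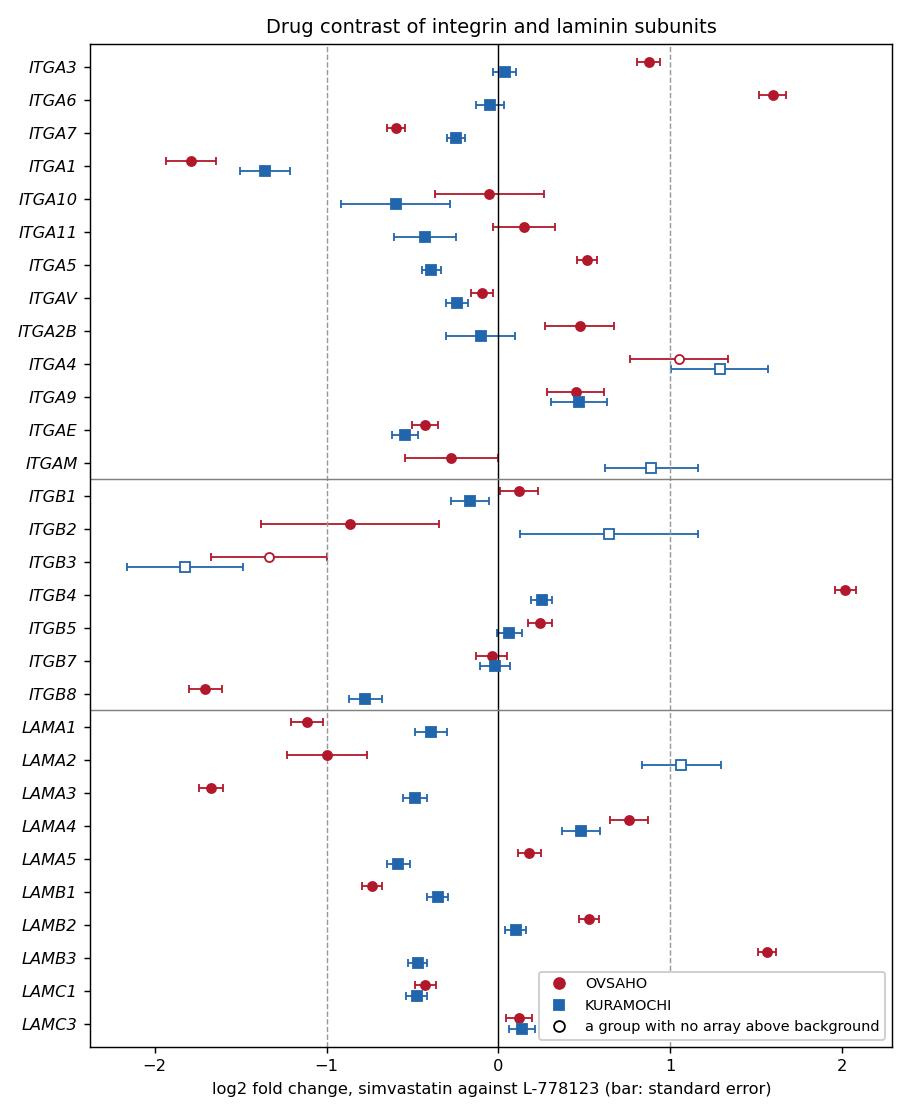
Log2 fold change of simvastatin against L-778123 (horizontal axis, bars are standard errors) for the 30 measured subunits, with OVSAHO as red circles and KURAMOCHI as blue squares. Dashed lines mark a 2-fold change, and open symbols mark a comparison with a group in which no array was above background. ITGB4, ITGA6 and LAMB3 lie beyond the right dashed line in OVSAHO and between -0.47 and 0.25 in KURAMOCHI.

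ITGB4, the beta subunit found only with alpha6, showed the largest rise among the subunits in OVSAHO. Its log2 intensity (RefSeq NM_000213) was 5.89 and 5.90 on the OVSAHO simvastatin arrays and 3.81 and 3.94 on the OVSAHO L-778123 arrays. In KURAMOCHI it was 3.34 and 3.36 with simvastatin and 3.11 and 3.09 with L-778123. Both OVSAHO simvastatin arrays thus stood above all other arrays, while the KURAMOCHI groups lay close together without overlapping. The log2 fold change was 2.02 (SE 0.062, a 4.05-fold difference, adjusted p = 2.43e-05) in OVSAHO and 0.25 (adjusted p = 0.0298) in KURAMOCHI. The drug contrast differed between the lines by 1.77 (SE 0.088, adjusted p = 0.000383).

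ITGA6, the alpha subunit that pairs with beta4 or beta1, moved the same way in OVSAHO. Its log2 intensity (NM_000210) was 0.66 on both OVSAHO simvastatin arrays and -0.83 and -1.03 on the OVSAHO L-778123 arrays. On the KURAMOCHI arrays it was 1.48 and 1.42 with simvastatin and 1.47 and 1.52 with L-778123, so that the KURAMOCHI groups overlapped and lay above both OVSAHO groups. The rise in OVSAHO was 1.60 on the log2 scale (SE 0.080, 3.02-fold, adjusted p = 7.83e-05), beside -0.048 (adjusted p = 0.684) in KURAMOCHI, and the contrast differed between the lines by 1.64 (SE 0.11, adjusted p = 0.000831). A second probe of ITGA6 gave 1.62 in OVSAHO and -0.12 in KURAMOCHI.

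LAMB3, the beta3 chain of the hemidesmosome laminin, was higher with simvastatin in OVSAHO and lower in KURAMOCHI. Its log2 intensity (NM_001017402) was 3.25 and 3.18 with simvastatin and 1.66 and 1.65 with L-778123 in OVSAHO. In KURAMOCHI it was 1.61 and 1.62 with simvastatin and 2.10 and 2.07 with L-778123. The groups did not overlap in either line, and their order was turned. The log2 fold change was 1.56 in OVSAHO (SE 0.054, 2.96-fold, adjusted p = 3.08e-05) and -0.47 in KURAMOCHI (SE 0.054, adjusted p = 0.00249), which is under 2-fold. The difference between the lines, 2.03 (SE 0.076, adjusted p = 0.000232), was the largest positive one among the subunits. The OVSAHO calls of ITGB4, ITGA6 and LAMB3 held under every alternative setting tried.

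LAMA3, the alpha3 chain of the same laminin, moved against LAMB3 in OVSAHO. Its log2 intensity (NM_198129) was 3.45 on both OVSAHO simvastatin arrays and 5.19 and 5.05 on the OVSAHO L-778123 arrays. In KURAMOCHI it was -0.34 and -0.43 with simvastatin and 0.11 and 0.087 with L-778123. Both lines thus had less LAMA3 signal with simvastatin, and every OVSAHO array stood above every KURAMOCHI array. The log2 fold change was -1.67 in OVSAHO (SE 0.069, 3.18-fold, adjusted p = 4.92e-05) and -0.48 in KURAMOCHI (adjusted p = 0.00505, under 2-fold), and the contrast differed by -1.19 (SE 0.098, adjusted p = 0.00137). A dimmer probe of LAMA3, designed to the transcript NR_130106 and above background on 6 of 8 arrays, gave -0.043 in OVSAHO (adjusted p = 0.916). It was not above background on the KURAMOCHI simvastatin arrays and was at least 1.37-fold lower there than with L-778123 (adjusted p = 0.120), also not called. With the median over both probes the OVSAHO value was -0.86 and the difference between the lines -0.25, and neither was called.

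Of the members with an entry in the table of promoters, LAMB3 and LAMA3 alone had the AP-1 motif in a stretch of 250 bases before a transcription start, and these stretches are shown with that of ITGA6, which moved as LAMB3 did in OVSAHO. They come from RefSeq and the assembly GRCh38.p14, and the table held 25 of the 35 members with 32 starts, and are written 5′ to 3′ on the strand of the gene, ending at the base before the start. LAMB3 has 3 starts in the table, of which the one shown lies farthest downstream and alone has the AP-1 motif. ITGA6 has 2 starts, of which the upstream one is shown. Its stretch holds no AP-1 motif and no GC box, whereas that of the other ITGA6 start holds 3 GC boxes. The LAMB3 stretch lies at chr1:209651375-209651624 on the minus strand, the LAMA3 stretch at chr18:23872770-23873019 on the plus strand, and the ITGA6 stretch at chr2:172427086-172427335 on the plus strand. Capitals mark the AP-1 motif and the GC box.
LAMB3: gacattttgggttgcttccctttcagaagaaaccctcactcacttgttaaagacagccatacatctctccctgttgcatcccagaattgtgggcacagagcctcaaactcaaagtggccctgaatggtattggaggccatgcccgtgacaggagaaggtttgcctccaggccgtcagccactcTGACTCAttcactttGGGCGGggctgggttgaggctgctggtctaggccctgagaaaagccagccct
LAMA3: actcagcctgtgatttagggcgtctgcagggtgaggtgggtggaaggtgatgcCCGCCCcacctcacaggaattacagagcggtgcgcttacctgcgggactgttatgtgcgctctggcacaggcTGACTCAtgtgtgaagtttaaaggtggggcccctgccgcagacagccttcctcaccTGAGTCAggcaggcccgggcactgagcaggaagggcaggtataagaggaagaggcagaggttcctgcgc
ITGA6: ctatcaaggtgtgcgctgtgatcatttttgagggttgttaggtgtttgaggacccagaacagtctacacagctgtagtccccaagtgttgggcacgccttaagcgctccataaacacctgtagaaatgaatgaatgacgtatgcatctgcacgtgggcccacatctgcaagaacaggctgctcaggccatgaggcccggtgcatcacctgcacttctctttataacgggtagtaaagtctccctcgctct

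The AP-1 motif, TGANTCA, began 67 bases before the LAMB3 start shown and 69 and 125 bases before the LAMA3 start. It occurred in 6.57% of all 35116 stretches of the same length. The GC box, GGGCGG, was found for 14 of the 25 members and in 42.6% of all stretches. For every motif, a member was counted if any of its stretches held a match, whereas the share is over single stretches. Members with several starts had more stretches in which to match, so that the count and the share are unlike measures. The other motifs searched, on both strands, were the TEAD motif GGAATG, found for 4 members and in 11.9% of all stretches, the KLF motif GGGTGTG, for 2 members and in 6.63%, and the CACCC box, for 20 members and in 54.7%. The KLF motif contains the CACCC box on the opposite strand. The ETS motif CCGGAAG was found for 3 members and in 8.52% of all stretches, the STAT motif TTCNNNGAA for 2 and in 6.57%, and the p53 half-site GGGCATG for 1 and in 3.19%. The cyclic AMP response element TGACGTCA, in 1.65% of all stretches, and the sterol regulatory element TCACNCCAC, in 0.883%, were found for 0 members. A match is a run of letters and not a binding site, and the part of any motif in the changes was not tested.

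**Figure D2:**
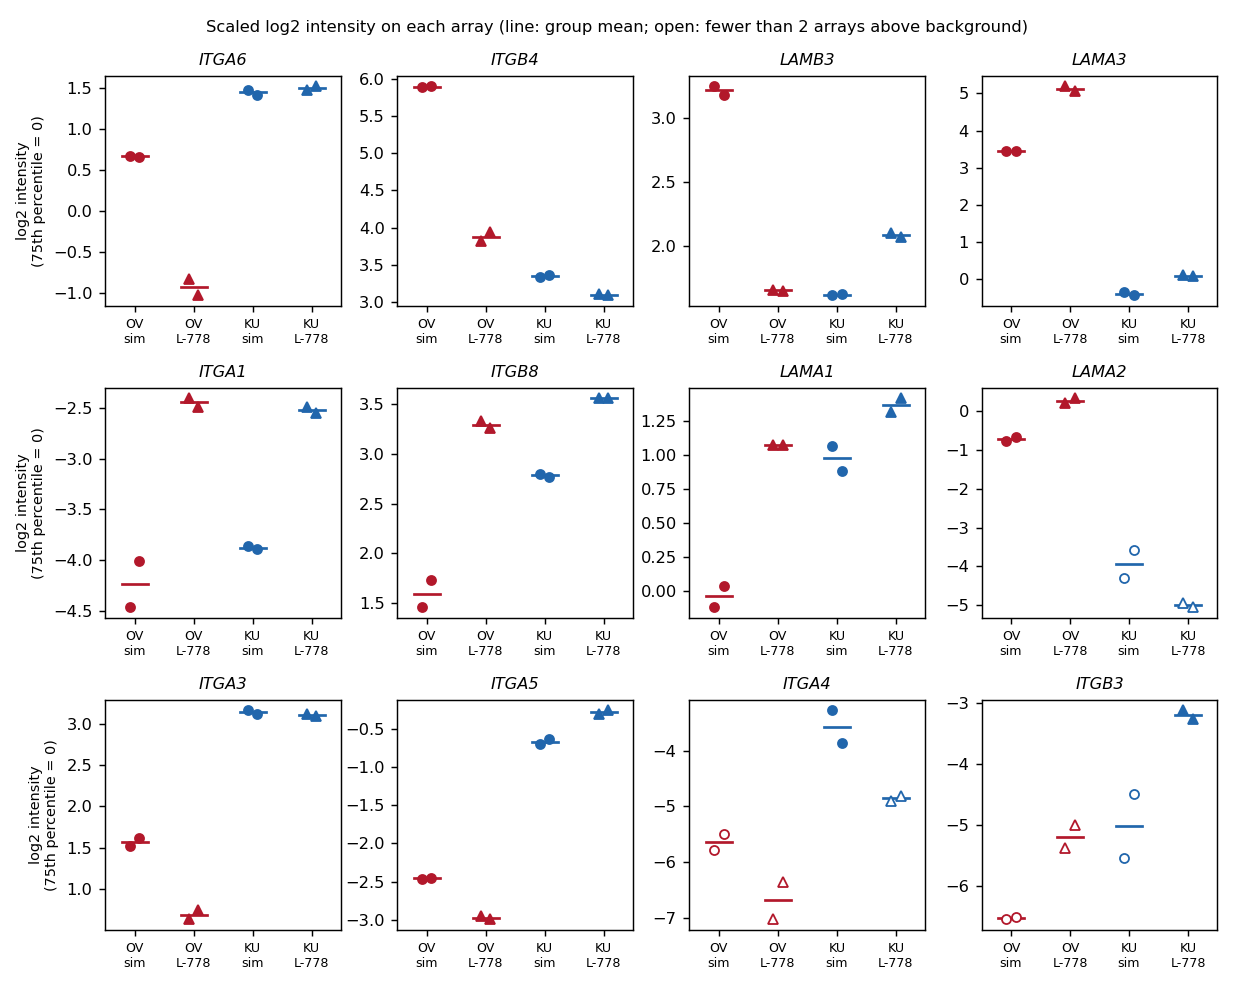
Log2 intensity on each array (vertical axis, 75th percentile of the array at 0, with its own range in each panel) for 12 subunits. Circles are simvastatin and triangles L-778123, red is OVSAHO (OV) and blue KURAMOCHI (KU), lines are group means, and symbols are open where fewer than 2 arrays of the group were above background. The OVSAHO simvastatin arrays are highest for ITGB4 and LAMB3 and lowest for ITGB8 and LAMA1.

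Of the other laminin receptor subunits, ITGA3 was higher with simvastatin in OVSAHO without reaching 2-fold, and ITGA7 was lower. ITGA3, which pairs with beta1, had log2 intensities of 1.52 and 1.61 with simvastatin and 0.63 and 0.74 with L-778123 in OVSAHO, whereas all 4 KURAMOCHI arrays lay between 3.09 and 3.16. Its log2 fold change was 0.88 in OVSAHO (SE 0.067, adjusted p = 0.000296) and 0.038 in KURAMOCHI (adjusted p = 0.704), and the contrast differed by 0.84 (adjusted p = 0.00362). ITGA7, best known from muscle, had values of -0.59 in OVSAHO (adjusted p = 0.000485) and -0.25 in KURAMOCHI (adjusted p = 0.0186). Its contrast differed between the lines by -0.35 (adjusted p = 0.0244), a call that was lost on leaving out any array but replicate 1 of OVSAHO with L-778123, with values between -0.37 and -0.33.

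ITGA1, the alpha1 subunit of a collagen receptor, fell with simvastatin in both lines. Its log2 intensity (NM_181501) was -4.46 and -4.01 with simvastatin and -2.41 and -2.49 with L-778123 in OVSAHO, and -3.86 and -3.89 against -2.49 and -2.55 in KURAMOCHI. The 4 simvastatin arrays lay below the 4 L-778123 arrays without overlap. The drug contrast was -1.79 in OVSAHO (SE 0.15, 3.45-fold, adjusted p = 0.000372) and -1.36 in KURAMOCHI (SE 0.15, 2.57-fold, adjusted p = 0.00203), and the difference between the lines, -0.43, had an adjusted p of 0.197. The probe was dim, and with normexp background correction, a model of background that shrinks changes of dim probes, the values were -0.62 and -0.53 and neither was called. ITGA10 and ITGA11, subunits of other collagen receptors, had log2 fold changes of -0.053 and 0.15 in OVSAHO and of -0.60 and -0.43 in KURAMOCHI, with adjusted p from 0.128 to 0.903. ITGA10 was above background on 1 of 2 arrays in each KURAMOCHI group. Without replicate 2 of KURAMOCHI with simvastatin its KURAMOCHI value was -1.08, which rests on a simvastatin array that was not above background.

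Among the receptors of RGD proteins, the fibronectin receptor subunit ITGA5 had contrasts of opposite sign in the lines, both under 2-fold. Its log2 intensity was -2.47 and -2.45 with simvastatin and -2.95 and -3.00 with L-778123 in OVSAHO, and -0.70 and -0.63 against -0.30 and -0.25 in KURAMOCHI. Its drug contrast was 0.52 in OVSAHO (SE 0.057, adjusted p = 0.00106) and -0.39 in KURAMOCHI (SE 0.057, adjusted p = 0.00538), and these differed by 0.91 (SE 0.081, adjusted p = 0.00172). ITGAV, which pairs with several beta subunits, had log2 fold changes of -0.097 in OVSAHO (adjusted p = 0.253) and -0.24 in KURAMOCHI (adjusted p = 0.0367). ITGA2B, the alpha subunit of the platelet fibrinogen receptor, was dim, with values of 0.47 in OVSAHO (adjusted p = 0.103) and -0.10 in KURAMOCHI (adjusted p = 0.730).

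ITGB8, which pairs with alphaV in a receptor known for activating latent TGF-beta, fell with simvastatin in OVSAHO. Its log2 intensity (NM_002214) was 1.45 and 1.73 with simvastatin and 3.33 and 3.26 with L-778123 in OVSAHO, and 2.80 and 2.77 against 3.56 on both arrays in KURAMOCHI. The simvastatin arrays of each line lay below its L-778123 arrays. The log2 fold change was -1.70 in OVSAHO (SE 0.097, 3.26-fold, adjusted p = 0.000109) and -0.77 in KURAMOCHI (SE 0.097, adjusted p = 0.00329), and the contrast differed by -0.93 (SE 0.14, adjusted p = 0.00789). The OVSAHO call held under every alternative setting tried.

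The beta3 subunit ITGB3, a partner of alphaV and alphaIIb, was well above background on both KURAMOCHI L-778123 arrays and on no other array. Its log2 intensity was -3.12 and -3.26 there, beside -5.54 and -4.49 on the KURAMOCHI simvastatin arrays and -6.55 to -5.00 on the OVSAHO arrays. ITGB3 passed the filter through those L-778123 arrays alone, where it was highest. With simvastatin it was at least 2.38-fold lower in KURAMOCHI (adjusted p = 0.0118), and no fold is given for OVSAHO. Such a bound sets the mean over all arrays of the brighter side against the lowest signal called above background on the arrays of the dim group. Some arrays of the brighter side were not above background for LAMA2 and ITGAM in KURAMOCHI and for ITGA4, ITGB2 and ITGB3 between the lines. Those bounds take in background signal and are not strict limits. Where the dim group's own signal was higher, that signal was used. The adjusted p beside a bound is that of the fitted difference, which takes in background signal. The KURAMOCHI call was lost without replicate 1 of KURAMOCHI with L-778123, with a fitted log2 value of -1.76, and with normexp correction, at -0.37.

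None of the other beta subunits was called in a drug comparison. ITGB1, the most widely shared partner, had log2 fold changes of 0.12 in OVSAHO (adjusted p = 0.404) and -0.17 in KURAMOCHI (adjusted p = 0.305). ITGB5, another partner of alphaV, had 0.24 (adjusted p = 0.0363) and 0.063 (adjusted p = 0.547). ITGB7 had -0.040 and -0.017, with adjusted p of 0.735 and 0.898. ITGB2, the beta subunit of leukocyte integrins, was above background on 3 OVSAHO arrays and no KURAMOCHI array, and its value of -0.86 in OVSAHO had an adjusted p of 0.216.

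ITGA4, which pairs with beta1 or beta7 and binds VCAM1, was measured on the KURAMOCHI simvastatin arrays alone. Its log2 intensity was -3.27 and -3.86 there, -4.89 and -4.81 on the KURAMOCHI L-778123 arrays and -7.03 to -5.50 on the OVSAHO arrays. ITGA4 passed the filter through that group alone, where it was highest. With simvastatin it was at least 1.96-fold higher in KURAMOCHI, a bound under 2-fold. The call rests on the fitted log2 value of 1.29 (adjusted p = 0.0207), which takes in background signal. The call of ITGA4 was lost without replicate 1 of the simvastatin group or without either L-778123 array, with fitted values between 0.99 and 1.33. ITGA9, its closest relative, had 0.45 in OVSAHO (adjusted p = 0.0677) and 0.47 in KURAMOCHI (adjusted p = 0.0791). ITGAE, the alpha subunit that binds E-cadherin with beta7, had -0.43 (adjusted p = 0.00619) and -0.54 (adjusted p = 0.00481), both under 2-fold. ITGAM, a subunit of myeloid cells, was above background on 4 arrays and was called in neither line. Its value was -0.27 in OVSAHO (adjusted p = 0.439). In KURAMOCHI, where 1 of 2 simvastatin arrays was above background, its bound was 1.35-fold higher with simvastatin (adjusted p = 0.0545).

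Of the remaining laminin alpha chains, LAMA1, a chain best known from embryonic basement membranes, fell with simvastatin in OVSAHO. Its log2 intensity (NM_005559) was -0.12 and 0.039 with simvastatin and 1.07 on both L-778123 arrays of OVSAHO. In KURAMOCHI it was 1.07 and 0.89 with simvastatin and 1.32 and 1.42 with L-778123. The OVSAHO simvastatin arrays thus stood below the other 6 arrays. On the log2 scale the fold change was -1.11 in OVSAHO (SE 0.091, 2.17-fold, adjusted p = 0.000372) and -0.39 in KURAMOCHI (adjusted p = 0.0247), and these differed by -0.72 (SE 0.13, adjusted p = 0.0143). A second, dimmer probe gave -1.003 and -0.36, and with normexp correction the OVSAHO value was -0.97, under the 2-fold limit.

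LAMA2, the alpha2 chain known from muscle and nerve, had contrasts of opposite sign. Its log2 intensity (NM_000426) was -0.77 and -0.68 with simvastatin and 0.21 and 0.33 with L-778123 in OVSAHO. In KURAMOCHI it was -4.31 and -3.57 with simvastatin, where 1 of 2 arrays was above background, and -4.95 and -5.05 with L-778123, where neither was. The OVSAHO value of -0.996 (SE 0.23, adjusted p = 0.0159) fell just short of 2-fold, and was called at -1.02 with quantile normalization. In KURAMOCHI the gene was at least 1.51-fold higher with simvastatin (adjusted p = 0.0198). That call was lost without replicate 2 of the simvastatin group or without either L-778123 array, with fitted values between 0.69 and 1.12, so that both higher calls in KURAMOCHI were lost on leaving out single arrays. The fitted contrast differed between the lines by -2.06 (SE 0.33, adjusted p = 0.00994), a value that takes in the background signal of KURAMOCHI and was -1.19 with normexp correction.

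LAMA4, a chain of vessel and mesenchymal laminins, had log2 fold changes of 0.76 in OVSAHO (adjusted p = 0.00276) and 0.48 in KURAMOCHI (adjusted p = 0.0225). A probe to another of its transcripts was above background on the 4 KURAMOCHI arrays and on no OVSAHO array, and gave -0.32 in KURAMOCHI (adjusted p = 0.142). LAMA5, the most widespread alpha chain of epithelia, was lower with simvastatin in KURAMOCHI at -0.58 (SE 0.068, adjusted p = 0.00268) and not in OVSAHO at 0.18 (adjusted p = 0.0759), and its contrast differed by 0.76 (adjusted p = 0.00508). None of these values reached 2-fold.

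LAMB1, the common beta chain, had log2 intensities of 2.14 and 2.04 against 2.80 and 2.86 in OVSAHO and of 5.13 and 5.12 against 5.49 and 5.47 in KURAMOCHI, for simvastatin against L-778123. Its log2 fold change was -0.74 in OVSAHO (SE 0.060, adjusted p = 0.000362) and -0.35 in KURAMOCHI (adjusted p = 0.00881). LAMC1, the gamma chain that most laminins share, had -0.42 (adjusted p = 0.00261) and -0.48 (adjusted p = 0.00336), with a difference between the lines of 0.052 (adjusted p = 0.700). LAMB2, which replaces beta1 in some laminins, had 0.53 in OVSAHO (adjusted p = 0.00117) and 0.10 in KURAMOCHI (adjusted p = 0.257). A dimmer probe of LAMB2 gave 0.64 in OVSAHO (adjusted p = 0.00153) and 0.30 in KURAMOCHI (adjusted p = 0.0372). LAMC3, a gamma chain of restricted expression, had 0.12 (adjusted p = 0.238) and 0.14 (adjusted p = 0.218), and a dimmer probe of it gave 0.62 in KURAMOCHI (adjusted p = 0.00985). The chains LAMB1 and LAMC1 were thus lower with simvastatin in both lines, under 2-fold, while LAMB2 was not.

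The drug contrast differed between the lines, as tested directly with an adjusted p below 0.05, for 13 of the 30 subunits. It was more positive in OVSAHO for 7 (23.3%), ITGA3, ITGA5, ITGA6, ITGB4, LAMA5, LAMB2 and LAMB3, against 13.4% of all genes. It was more negative in OVSAHO for 6 (20.0%), ITGA7, ITGB8, LAMA1, LAMA2, LAMA3 and LAMB1, against 14% of all genes. Apart from LAMA2, which was near background in KURAMOCHI, the differences of the called subunits ranged from -1.19 for LAMA3 to 2.03 for LAMB3. The median was 0.13 over the 30 subunits, beside -0.0087 over all genes. Those of LAMB2, at 0.43 (adjusted p = 0.0197), and LAMB1, at -0.38 (adjusted p = 0.0270), were lost on leaving out most single arrays, with values from 0.41 to 0.44 for LAMB2 and from -0.41 to -0.34 for LAMB1 in the fits without the call. LAMB1 was kept only without replicate 1 of OVSAHO with simvastatin, and LAMB2 only without an L-778123 array of OVSAHO. The call of LAMB2 was also lost with quantile normalization, among other settings. In the main fit, the dimmer probe of LAMB2 gave a difference of 0.35 (adjusted p = 0.0763) and that of LAMA1 -0.64 (adjusted p = 0.0539), neither of them called. Calls were gained without replicate 2 of OVSAHO with simvastatin for ITGA1 at -0.66, ITGAM at -1.55 and ITGB1 at 0.45, and without replicate 2 of KURAMOCHI with simvastatin for ITGA10 at 1.03 and ITGB3 at 1.02. The values of ITGAM and ITGB3 take in groups with no array above background. That of ITGA10 rests on a KURAMOCHI simvastatin array that was not above background.

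Between the lines, averaged over both drugs, the laminin chains LAMA3 and LAMA2 were higher in OVSAHO, whereas LAMB1, LAMC1 and several integrin alpha subunits were higher in KURAMOCHI. Of the 30 subunits, 5 (16.7%) were called higher in OVSAHO, against 18.3% of all genes. In turn, 9 (30.0%) were called lower, against 16.4% of all genes. These counts include ITGB2 among the higher and ITGA4 and ITGB3 among the lower genes. Each was above background only in the line with the higher signal, and its bound was under 2-fold. In that line ITGB2 was above background on 3 of 4 arrays, and ITGA4 and ITGB3 on 2 of 4. The counts thus rest in part on how the filter treats dim genes. The higher ones were LAMA3 at 4.43 (SE 0.049, adjusted p = 7.88e-08), LAMA2 at 4.24 (SE 0.16, adjusted p = 2.83e-06), ITGB4 at 1.66 (adjusted p = 7.35e-07), LAMC3 at 1.01 (adjusted p = 9.62e-06) and ITGB2, at least 1.47-fold (adjusted p = 0.0304). The dimmer probe of LAMA3 gave 1.15, and the median over its probes 2.79. LAMA2, above background on 1 of 4 KURAMOCHI arrays, was at 2.33 with normexp correction. The calls of LAMC3 and ITGB2 were the ones lost on leaving out arrays, LAMC3 without replicate 1 of KURAMOCHI with simvastatin or replicate 2 of KURAMOCHI with L-778123, at 0.99 and 0.97, and ITGB2 without replicate 2 of OVSAHO with simvastatin, either array of OVSAHO with L-778123, replicate 1 of KURAMOCHI with simvastatin or replicate 2 of KURAMOCHI with L-778123, at 0.80 to 1.20. The values of the lower subunits were -2.84 for LAMB1 (SE 0.042, adjusted p = 1.43e-07), -2.26 for ITGAV, -2.24 for ITGA5, -1.99 for ITGA3, -1.63 for LAMC1, -1.61 for ITGA6 and -1.23 for ITGB1, with adjusted p of 2.33e-05 or less. ITGA4 was at least 1.47-fold lower (adjusted p = 0.000206) and ITGB3 at least 1.54-fold lower (adjusted p = 0.000776) in OVSAHO.

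Several of these line differences were large beside the drug contrast of the same gene. ITGAV lay at 3.43 to 3.62 on the OVSAHO arrays and at 5.67 to 5.93 on the KURAMOCHI arrays, and LAMC1 at 3.32 to 3.80 and 4.90 to 5.44. For ITGB4 every OVSAHO array, from 3.81 to 5.90, stood above every KURAMOCHI array, from 3.09 to 3.36. LAMB3 was higher in OVSAHO by 0.58 on average, but its OVSAHO L-778123 arrays lay between the KURAMOCHI groups. The brightest probe of LAMA4 did not separate the lines, at -0.055 (adjusted p = 0.540), whereas its other measured probe was at least 7.84-fold lower in OVSAHO (adjusted p = 4.38e-07), so that the probes of this gene disagreed. The summed log2 level of the fibroblast markers was -1.25 to -0.19 on the OVSAHO arrays and 4.16 to 4.45 on the KURAMOCHI arrays. Most of the KURAMOCHI sum came from THY1, at 3.95 with simvastatin and 4.19 with L-778123. The markers DCN, LUM, PDGFRA, PDGFRB, FAP and COL1A2 were above background in neither line. The part of the fibroblast markers in these line differences was not tested.

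**Figure D3:**
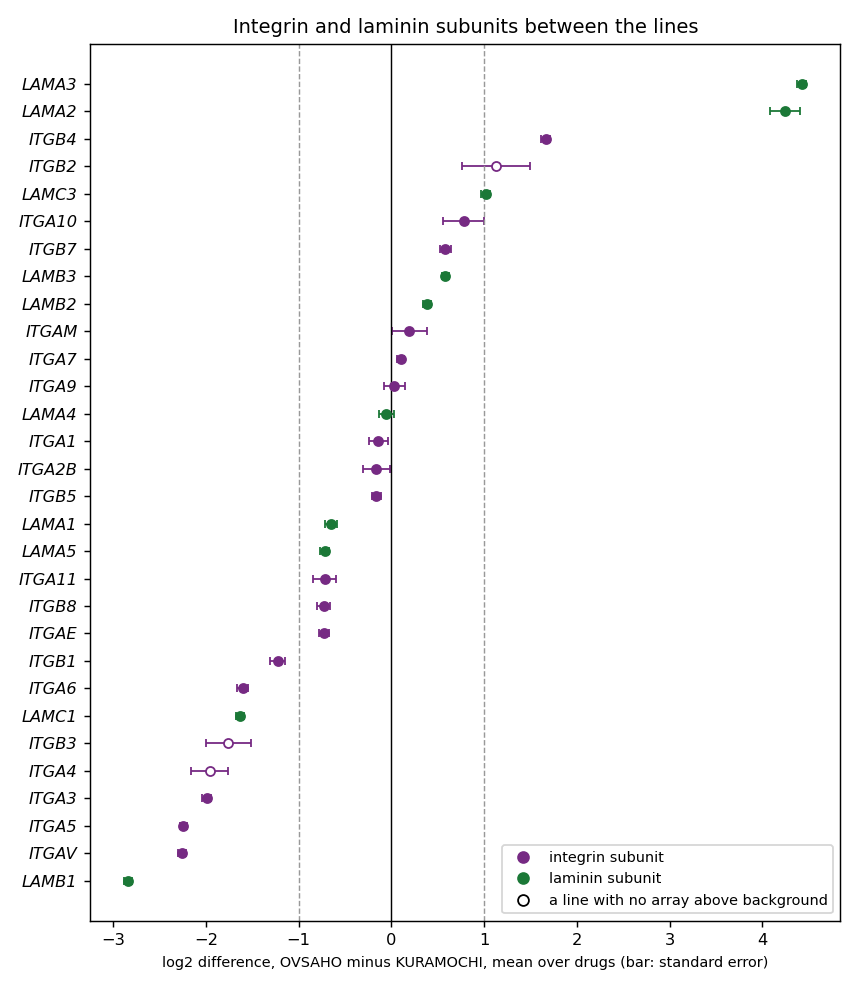
Log2 difference between OVSAHO and KURAMOCHI, averaged over both drugs (horizontal axis, positive is higher in OVSAHO, bars are standard errors), for the 30 measured subunits in order of size, integrins in purple and laminins in green. Dashed lines mark a 2-fold difference, and open symbols mark genes above background in 1 line only. LAMA3 and LAMA2 lie beyond 4 and LAMB1 lies lowest at -2.84.

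Genes that work with these subunits were taken from 4 lists by function. Their counts stand against the same shares of all genes as above, 5.69% higher and 5.88% lower in OVSAHO and 2.44% and 2.94% in KURAMOCHI. Of 29 measured integrin activators and adhesion plaque proteins, which couple integrins to actin, 1 rose and 2 fell in OVSAHO, and 0 rose and 6 fell in KURAMOCHI, where 3 were higher in limma at an unadjusted p under 0.05. In OVSAHO the tensin TNS3 fell by 1.66 on the log2 scale (adjusted p = 7.36e-05) and the kindlin FERMT1 fell by 1.36 (adjusted p = 0.0159), the largest changes, while KANK2, a talin-binding protein, rose by 1.18 (adjusted p = 6.53e-05). In KURAMOCHI the largest changes were in LIMS2, a partner of integrin-linked kinase, which fell by 2.29 (adjusted p = 0.000107), and in the actin crosslinker ACTN1, which fell by 1.43 (adjusted p = 0.000148). FERMT1 was among the 6 in KURAMOCHI, although no array of that line was above background for it, and without it 5 of 28 fell. The medians were -0.15 in OVSAHO and -0.26 in KURAMOCHI, beside 0.014 and 0.012 over all genes.

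Of 12 measured basement membrane partners of laminin, 0 rose and 5 fell in OVSAHO, against 5.69% and 5.88% of all genes, all but SPARC being collagen IV chains, the network to which laminin is linked. COL4A6 was at least 3.06-fold lower with simvastatin in OVSAHO (adjusted p = 0.00208) and at -0.075 in KURAMOCHI (adjusted p = 0.8996), and SPARC, a collagen-binding matrix protein, fell by 1.58 in OVSAHO (adjusted p = 4.95e-05). COL4A1 was the single gene of this list called in KURAMOCHI, where it fell by 1.19 (adjusted p = 0.000257), beside -1.18 in OVSAHO. No gene of the list rose in either line, although 2 were higher in OVSAHO and 0 in KURAMOCHI in limma at an unadjusted p under 0.05. The median was -0.52 in OVSAHO and -0.34 in KURAMOCHI. Of the 10 other laminin receptors and hemidesmosome proteins measured, 1 rose and 0 fell in OVSAHO, and 0 were called in KURAMOCHI. At an unadjusted p under 0.05 in limma, 4 were lower in OVSAHO, and 2 were higher and 4 lower in KURAMOCHI. The gene that rose was PLEC, which encodes plectin, the linker of integrin beta4 to keratin filaments, at 1.45 (SE 0.069, adjusted p = 7.05e-05) in OVSAHO and -0.035 in KURAMOCHI (adjusted p = 0.730), a difference of 1.48 (adjusted p = 0.000754). The medians of this list were 0.047 and -0.14.

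Of 20 measured ligands of RGD and collagen binding integrins, 3 rose and 4 fell in OVSAHO, and 0 rose and 3 fell in KURAMOCHI. FN1, SPP1, IBSP, COL1A1 and COL3A1 were above background on no OVSAHO array and entered through KURAMOCHI. Over the other 15 ligands, a count chosen after the data were seen, the same 3 rose and 4 fell in OVSAHO, with a median of -0.32. In KURAMOCHI, 3 ligands were higher in limma at an unadjusted p under 0.05. The matrix-associated protein CCN2 fell by 3.63 in OVSAHO (adjusted p = 0.000124) and fell by 1.79 in KURAMOCHI (adjusted p = 0.00285), and its relative CCN1 fell by 2.32 in OVSAHO and fell by 1.81 in KURAMOCHI (adjusted p = 2.04e-05 and 0.000142). EDIL3, a ligand of alphaV integrins, rose by 2.58 in OVSAHO (adjusted p = 0.000456), where 1 of 2 L-778123 arrays was above background. Between the lines, 13 of the 20 ligands were lower in OVSAHO and 2 were higher, and of the 14 ligands above background in both lines 8 were lower and 1 was higher, against 16.4% and 18.3% of all genes. SPP1, or osteopontin, a ligand of alphaV integrins, was at least 420.0-fold lower in OVSAHO and COL3A1, a fibrillar collagen that is also a fibroblast marker, at least 68.9-fold lower, both named after their values were seen.

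**Figure D4:**
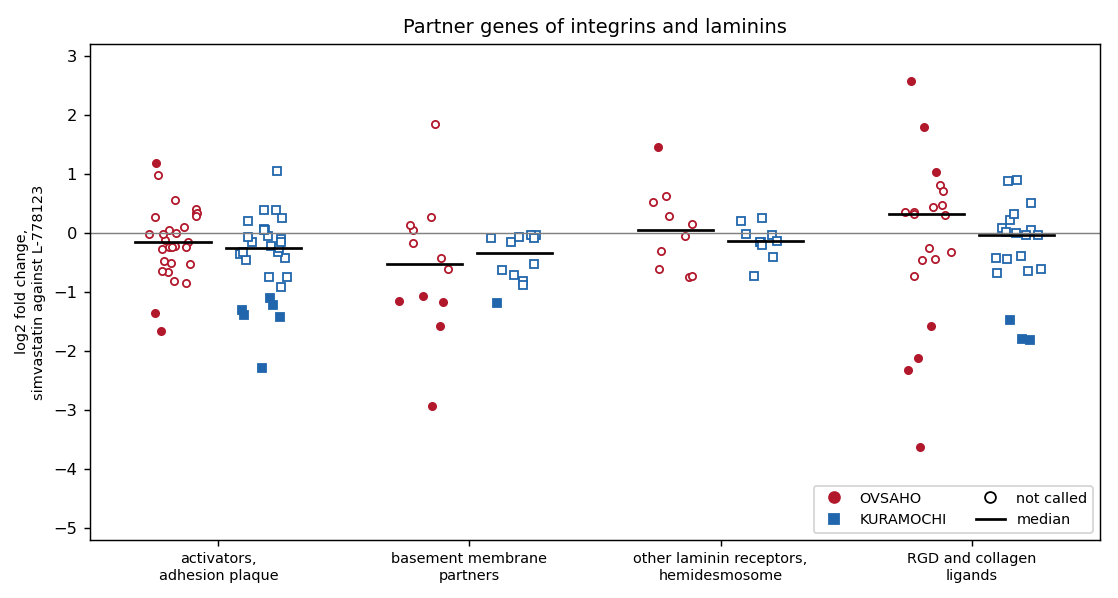
Log2 fold change of simvastatin against L-778123 (vertical axis) for each measured gene of the 4 partner lists, OVSAHO in red and KURAMOCHI in blue. Filled symbols are called genes, open symbols are not, and black lines are medians, which for the ligands in OVSAHO take in 5 genes above background on no OVSAHO array. The filled symbols of the basement membrane partners lie at -1.07 or below.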

How the data were processed

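RNA of 8 samples was labeled with a single dye and hybridized to SurePrint G3 Human Gene Expression arrays. The authors extracted the images with Feature Extraction 11.5.1.1 and deposited, per array, the processed intensity of each spot, corrected for background within the array, with flags for spots above background and for outliers. They also deposited a table of processed intensity with columns labeled by sample. It correlated with the arrays of the same samples (at least 0.999) and was found to be quantile normalized. Its values served as an alternative.

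Control spots and outlier spots (58 to 99 per array) were left out, spots of a probe were averaged, and log2 intensities were scaled so that the 75th percentile of every array was 0. The filter kept 33753 of 58162 probes. Array identifiers were named through RefSeq accessions (24764 of 50096 matched), of a later assembly than the array design, used for names only, and a gene took its brightest kept probe. All genes were fitted with limma 3.58.1 in R 4.3.3, with 1 mean per group, and Benjamini-Hochberg adjusted. The fit was tested on simulated data. The members and lists were chosen by function, with earlier results of these data known. For each list, the text names the 2 called genes with the largest change in each drug comparison. The deviations of replicates from their group means correlated between groups at 0.000848 to 0.0555, which cannot show whether replicate numbers pair the samples.

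All arrays lay on 1 slide, with each line and each drug at its own positions: position and group cannot be told apart. Precision is limited by 2 arrays per group. The alternatives were normexp (offset 50, on the median spot signal), quantile normalization, a percentile over bright probes, the authors' table, no filter and a stricter filter on dim probes, the median over probes, a replicate block, each drug comparison fitted alone, the analysis of variance and Tukey test of the methods, other fold limits and each array left out. Plots used Python 3.11.15 with matplotlib 3.10.9.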

Additional observations from a re-analysis of the deposited data

Results flagged for a closer look

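The drug contrast differed between OVSAHO and KURAMOCHI, by the test of the difference itself (limma, adjusted p under 0.05), for 13 subunits, all given as log2 differences, OVSAHO minus KURAMOCHI. The values were 2.03 for LAMB3, 1.77 for ITGB4, 1.64 for ITGA6, 0.91 for ITGA5, 0.84 for ITGA3, 0.76 for LAMA5 and 0.43 for LAMB2. They were -2.06 for LAMA2, -1.19 for LAMA3, -0.93 for ITGB8, -0.72 for LAMA1, -0.38 for LAMB1 and -0.35 for ITGA7. LAMA2 was above background on 1 of the 4 KURAMOCHI arrays. With 2 arrays per group, single arrays that stand apart could not be searched for.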

How the results depend on the processing

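Of 2076 values of single subunits under 18 alternatives, 1986 kept their side of the limits, among them 38 that were uncalled in both and changed sign, 76 lost a call, 14 gained one, and 0 called values turned their sign. With normexp correction, 2 subunits were called lower in OVSAHO, 0 were called higher and 0 lower in KURAMOCHI, and 3 were higher in OVSAHO than in KURAMOCHI. Without a filter on dim probes, which shifted the median of all genes by -0.13 between the lines, 1 was called higher in KURAMOCHI and 3 had a more negative contrast in OVSAHO. With the stricter filter, 0 were called higher and 1 lower in KURAMOCHI, and 3 were higher in OVSAHO than in KURAMOCHI. With the groups compared alone, 1 was called higher and 1 lower in KURAMOCHI, and with the methods' analysis of variance 0 and 1. The calls lost in KURAMOCHI in these settings were those of ITGA4, ITGB3 and LAMA2, and with normexp also that of ITGA1. Beside the counts of 0 higher, 7 subunits with normexp, 3 with the stricter filter (both limma) and 2 with the analysis of variance were higher at an unadjusted p under 0.05, and beside the 0 lower with normexp 14 were lower. At a fold change of at least 1.5, 8 were called lower in OVSAHO and 14 lower in OVSAHO than in KURAMOCHI. By the adjusted p alone, the counts were 9 higher and 10 lower in OVSAHO, 4 and 13 in KURAMOCHI, and 10 and 15 between the lines.

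Leaving out each array in turn gave 3 to 4 subunits higher and 4 to 5 lower in OVSAHO, 0 to 2 higher and 1 to 3 lower in KURAMOCHI, 6 to 8 with a more positive and 4 to 6 with a more negative contrast in OVSAHO, and 3 to 6 higher and 9 lower between the lines. The 0 came without either KURAMOCHI array with L-778123 (7 and 5 higher in limma at an unadjusted p under 0.05), and the 3 without replicate 1 of KURAMOCHI with simvastatin or replicate 2 of KURAMOCHI with L-778123. Where a group was left with 1 array, that array was assumed to vary like the other groups. With the replicate block, the counts in the drug comparisons stayed at 4 and 5 in OVSAHO and 2 and 2 in KURAMOCHI, the contrasts numbered 8 and 5, with ITGA11 gained and LAMB1 lost, and ITGB2 was lost between the lines, leaving 4 higher and 9 lower. The replicate numbers are not known to pair the samples. With the median over probes, LAMA4 was called lower in OVSAHO than in KURAMOCHI, at -2.22. Signal over background limits the values of ITGA4, ITGA10, ITGB3, ITGB2, ITGAM and LAMA2 in KURAMOCHI.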
